A study of Mus musculus with 45 samples.

Results

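The genes described here are 10 regulators of actin in dendritic spines, out of 18135 genes measured. They are Ddn, Marcks, Synpo, Dbn1, Cttn, Abi1, Baiap2, Wasf1, Arhgap44 and Tpm1. Ddn and Marcks were selected on measured values, because their mean normalized counts were lower in the striatum of homozygous mutants than of wild-type mice. The other 8 genes were named for their function, but with earlier results of these data known, so counts over them are not blind to those results. RNA sequencing of the prefrontal cortex (called cortex here), hippocampus and striatum was analysed in male C57BL/6J mice aged 13 weeks. The mice were wild type (WT), heterozygous (Shank3-HT) or homozygous (Shank3-HM) for a deletion of exons in the middle of Shank3, the gene of a scaffold protein of excitatory synapses. Each of the 9 groups of region and genotype held 5 samples, 45 in all. The labels name no treatment for any group, and do not say whether the 3 regions of one number came from one mouse.

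Most excitatory synapses in the forebrain sit on dendritic spines, small protrusions whose shape is set by branched and bundled actin filaments. Branching starts when Rac1 activates the WAVE complex, which holds Wasf1 and an Abi protein, and the WAVE complex in turn activates Arp2/3. Cortactin (Cttn) steadies the branches, drebrin (Dbn1) and tropomyosin (Tpm1) bind along the filament, IRSp53 (Baiap2) bends the membrane and ties it to Rac1 signals, and Arhgap44 switches Rac off. Synaptopodin (Synpo) belongs to the spine apparatus, dendrin (Ddn) is a postsynaptic protein whose mRNA is carried into dendrites, and MARCKS (Marcks) links actin to membrane lipids and is released by protein kinase C. Spiny projection neurons, the main neurons of the striatum, carry many such spines.

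The values are normalized counts that the authors deposited, and the depth of sequencing behind them is unknown. Shank3 was checked first. Its mean normalized count in Shank3-HM mice was 50.6% of WT (cortex), 47.8% (hippocampus) and 46.6% (striatum), and in Shank3-HT mice it was 76.7%, 74.1% and 70.8%, with every mutant sample below every WT sample of its region. Markers of striatal spiny projection neurons (13 genes summed) reached 235962 to 318151 in the striatum, and 9899 to 14856 in the other regions, apart from 1 cortical library. That library, Shank3-HM replicate 2, had 69902, and its Drd1 count was 2483. In the striatum, Slc17a7, which cortical projection neurons express, was 6032 to 7801 in WT replicate 5, Shank3-HT replicate 3 and Shank3-HM replicate 1, and Ttr, a choroid plexus gene, was 62259 in Shank3-HT replicate 5. These 5 libraries are called mixed libraries here, after their markers of another tissue, and results from the cortex or striatum are also given without them where this ends or makes a call, turns a direction, or moves a value that the text describes by over 1.5 times. No hippocampal library was put among them, although Ttr ran from 591 to 113040 there (highest in WT replicate 4) and the 8 choroid plexus markers summed to 1318 to 124293. Fewer cells of a type and less RNA per cell cannot be told apart in such tissue samples.

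All 10 genes had a mean above the filter of 10 normalized counts in each region. Per kilobase of annotated exon, Ddn stood far above the others in WT mice, with a cortical mean of 7888, a hippocampal mean of 15627 and a striatal mean of 10845. By the mean over the 3 regions, Wasf1, at 1833 to 3153 per kilobase, and Baiap2, at 1387 to 3028, followed, and Arhgap44, at 357 to 732, was lowest. The spread between the 5 WT samples of a region was modest, with coefficients of variation of 1.16% to 12.4% over the 10 genes.

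**Figure D1:**
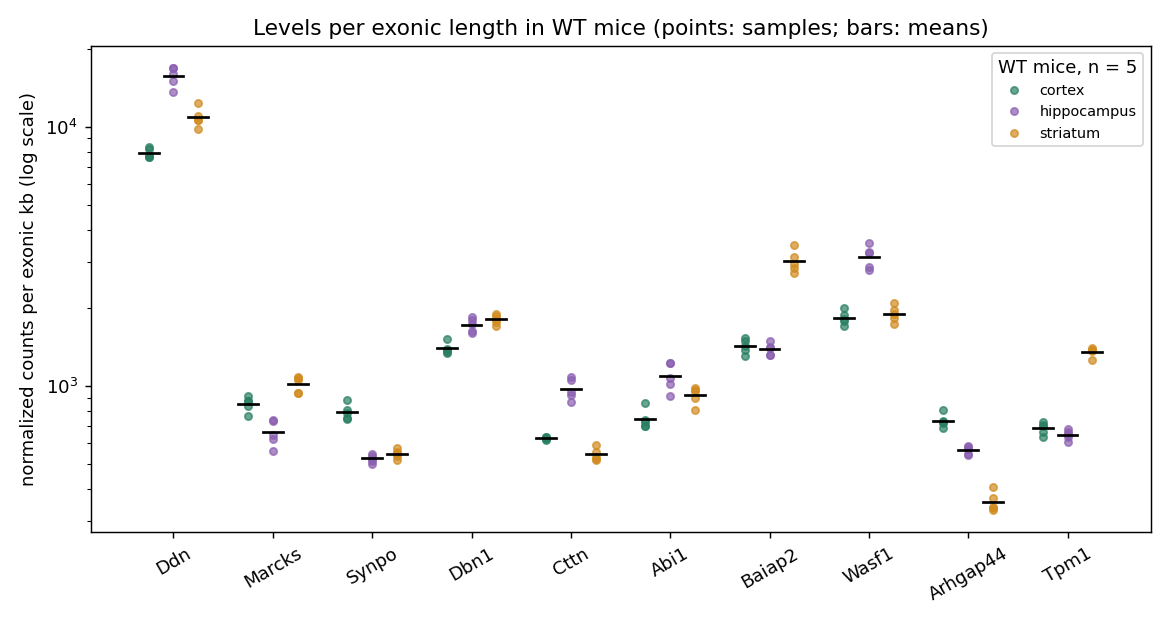
Levels of the 10 genes in WT mice. The y axis is normalized counts per kilobase of annotated exon on a log scale, each point is 1 of 5 samples of a region, and black bars are means. Ddn is highest throughout, Baiap2 and Tpm1 stand higher in the striatum than in both other regions, and Arhgap44 stands lower there.

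The question put to the WT mice was how these genes differ between regions, which gives the baseline against which the mutants are read. Differences are on the scale of log2(normalized count + 1) with standard errors, and adjusted p values are from limma over all genes tested in 1 fit of the 9 groups. Because the striatal WT samples are among the values that chose Ddn and Marcks, comparisons that use them are given for these 2 genes without a test, and counts there are over the other 8. Of the 8, 7 passed the threshold between striatum and cortex (4 higher in the striatum, 3 lower), where 59.3% of all genes did. Between striatum and hippocampus 6 of 8 passed (2 higher, 4 lower), against 56.1% of all genes, and between hippocampus and cortex 8 of 10 passed (5 higher, 3 lower), against 46.6%. The median size of the difference over the genes counted was 0.45, 0.70 and 0.46 in the 3 comparisons, and over all genes tested it was 0.33, 0.31 and 0.25.

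Baiap2 and Tpm1 had the widest rises in the striatum over both other regions. Baiap2 had normalized counts of 14243, 14723, 15602, 17363 and 13637 in the striatal WT samples. It ranged from 6525 to 7602 in the cortex and from 6556 to 7453 in the hippocampus, so the striatum did not overlap with either. Striatal Baiap2 was 2.13-fold the cortical mean and 2.18-fold the hippocampal mean (log2 differences of 1.09 ± 0.06 and 1.12 ± 0.06, limma adjusted p = 1.06e-18 and 2.38e-19). Tpm1 had 8894, 9052, 8856, 8904 and 8139 normalized counts in the striatum, and 4116 to 4706 in the cortex and 3950 to 4407 in the hippocampus. It was thus 1.97-fold and 2.09-fold as high (log2 differences of 0.98 ± 0.06 and 1.06 ± 0.06, limma adjusted p = 2.64e-18 and 1.22e-19). Neither Baiap2 (-0.03 ± 0.06, limma adjusted p = 0.684) nor Tpm1 (-0.08 ± 0.06, limma adjusted p = 0.251) passed the threshold between hippocampus and cortex in WT mice. Baiap2 lies on chromosome 11 (119942763 to 120006782, plus strand, GRCm38) and Tpm1 on chromosome 9 (67022590 to 67049406, minus strand).

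Arhgap44, the GTPase-activating protein for Rac, went the other way. Its normalized counts were 1965, 1932, 1983, 2151 and 2360 in the striatum, 3144 to 3406 in the hippocampus and 3998 to 4674 in the cortex, and no 2 regions overlapped. The striatal mean was 48.8% of the cortical one (log2 difference -1.04 ± 0.05, limma adjusted p = 9.52e-21) and 63.3% of the hippocampal one (-0.66 ± 0.05, limma adjusted p = 8.23e-15). The gene lies on chromosome 11 (65002039 to 65162961, minus strand, GRCm38).

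The bases just before the RefSeq start of these 3 genes are shown because they are the members with the widest differences between striatum and cortex, in both directions. RefSeq windows (GRCm38.p6) were found for 6 of the 10 members, and each window printed is the 250 bases before the start, 5′ to 3′ on the strand of the gene. Baiap2 is chr11:119942842-119943091 on the plus strand, Tpm1 is chr9:67049214-67049463 on the minus strand, and Arhgap44 is chr11:65162962-65163211 on the minus strand. The Baiap2 window lies inside the gene bounds given above, and most of the Tpm1 window does. Both genes are thus annotated to begin before the RefSeq start used, and the windows need not be the only promoters. The Arhgap44 window lies just outside its gene bounds. Capitals mark matches, on either strand, to the TATA box (TATAAA), the GC box (GGGCGG), the element CCAAT, the E-box (CANNTG) and the M-CAT element (CATTCC).
Baiap2: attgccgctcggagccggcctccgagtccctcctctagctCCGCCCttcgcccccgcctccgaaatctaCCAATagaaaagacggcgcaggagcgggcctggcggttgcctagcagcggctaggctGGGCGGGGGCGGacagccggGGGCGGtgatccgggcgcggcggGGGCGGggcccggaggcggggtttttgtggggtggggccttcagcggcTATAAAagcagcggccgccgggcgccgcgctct
Tpm1: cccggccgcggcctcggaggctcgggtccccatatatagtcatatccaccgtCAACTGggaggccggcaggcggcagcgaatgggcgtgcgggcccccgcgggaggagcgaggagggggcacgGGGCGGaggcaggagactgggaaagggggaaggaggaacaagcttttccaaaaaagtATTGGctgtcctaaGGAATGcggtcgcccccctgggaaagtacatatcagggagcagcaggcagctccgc
Arhgap44: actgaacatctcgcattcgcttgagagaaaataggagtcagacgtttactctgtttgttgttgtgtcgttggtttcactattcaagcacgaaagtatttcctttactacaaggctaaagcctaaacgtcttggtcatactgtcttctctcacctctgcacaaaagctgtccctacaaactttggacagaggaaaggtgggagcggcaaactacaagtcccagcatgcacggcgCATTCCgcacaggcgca
The Baiap2 window held 5 GC boxes between positions -210 and -81, counted back from the start by the first base, a CCAAT at -181 and a TATA box at -33. The Tpm1 window held a GC box at -127, a CCAAT at -70, an E-box at -198 and an M-CAT element at -56, and the Arhgap44 window held an M-CAT element at -17 alone. Of all 32851 windows of this length, 12.4% held a TATA box, 32.7% a GC box, 33.8% a CCAAT element, 66.2% an E-box and 12.6% an M-CAT element. The serum response factor site known as the CArG box, in 1.47% of windows, was in none of the 3. Baiap2 and Tpm1 shared the GC box and the CCAAT element, which are frequent among windows.

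The hippocampus was the high point for Ddn, Wasf1, Cttn and Abi1. Ddn had 63608, 60104, 63416, 51576 and 56718 normalized counts there, 37028 to 46516 in the striatum and 28735 to 31580 in the cortex, with no overlap between regions. The hippocampal mean was 1.98-fold the cortical one (log2 difference 0.98 ± 0.06, limma adjusted p = 2.21e-17), and the striatum lay 0.53 ± 0.06 below the hippocampus and 0.46 ± 0.06 above the cortex. Wasf1, the WAVE subunit that activates Arp2/3, had 7949 to 10148 normalized counts in the hippocampus, and 4844 to 5686 in the cortex and 4937 to 5939 in the striatum. The last 2 regions overlapped (0.05 ± 0.07, limma adjusted p = 0.582, and 0.08 without the mixed libraries). Cttn stood at 3615 to 4549 in the hippocampus, 2588 to 2667 in the cortex and 2169 to 2484 in the striatum, again without overlap. Abi1, which holds the WAVE complex together, had a hippocampal mean 1.46-fold the cortical mean. Its striatal mean lay between them, 0.24 ± 0.08 below the hippocampus (limma adjusted p = 0.0143). That call was lost without hippocampus WT replicate 2 (limma adjusted p = 0.0558), hippocampus WT replicate 3 (0.0581) or striatum WT replicate 5 (0.0606).

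Marcks ran in another order, with the striatum above the cortex and the cortex above the hippocampus. Its normalized counts were 4347, 4243, 3812, 3801 and 4365 in the striatum, 3085 to 3684 in the cortex and 2277 to 2995 in the hippocampus. The striatum was 0.26 ± 0.07 above the cortex and 0.63 ± 0.07 above the hippocampus. Synpo was highest in the cortex, with 7080 to 8414 normalized counts in the cortex, above all samples of the hippocampus (4778 to 5213) and striatum (4917 to 5491). Dbn1 was lowest in the cortex (6050 to 6836), and its striatal and hippocampal values (7694 to 8515 and 7200 to 8341) overlapped. Striatum and hippocampus did not pass the threshold for Synpo (0.06 ± 0.07, limma adjusted p = 0.468) or Dbn1 (0.07 ± 0.06, limma adjusted p = 0.261).

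The regional comparisons were repeated in the mutant mice, which are separate samples but share the fit of 9 groups and its estimate of the spread. Of the 7 genes called between striatum and cortex in WT mice, with Ddn and Marcks left out, 7 were called in the same direction in Shank3-HT mice and 6 in Shank3-HM mice, against 87.2% and 85.2% of all genes called in WT mice. For striatum and hippocampus the counts were 6 and 5 of 6 (81.2% and 83.5% of all genes called), and for hippocampus and cortex, over all members, 7 and 7 of 8 (80.2% and 77%). In Shank3-HM mice Dbn1 did not pass between striatum and cortex (0.11 ± 0.06, limma adjusted p = 0.0903), nor Abi1 between striatum and hippocampus (-0.18 ± 0.08, limma adjusted p = 0.0584). Marcks did not pass between hippocampus and cortex in either mutant (limma adjusted p = 0.0623 for Shank3-HT and 0.0604 for Shank3-HM). Members not called in WT mice were also called in Shank3-HM mice. Between hippocampus and cortex these were Baiap2 (-0.27 ± 0.06, limma adjusted p = 0.000572) and Tpm1 (-0.18 ± 0.06, limma adjusted p = 0.00906), and between striatum and hippocampus Dbn1 (-0.15 ± 0.06, limma adjusted p = 0.0180). Of all genes not called in WT mice, 11.8% and 18.1% were called in Shank3-HM mice in these 2 comparisons. A call in one genotype and not in another is not a test of the difference between them. Tpm1 kept its regional rise in Shank3-HM mice, at 1.28 ± 0.06 over the cortex and 1.46 ± 0.06 over the hippocampus.

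The question put to the mutants was whether loss of 1 or both Shank3 copies altered these genes in each region, with the 3 genotypes of a region fitted together. In the cortex, 0 of 10 members were called in Shank3-HT mice, where 0% of all genes tested were called, and 0 of 10 in Shank3-HM mice, where 0.0121% were. Shank3 itself, at 76.7% of WT, was not called in the cortex of Shank3-HT mice (log2 difference -0.38 ± 0.07, limma adjusted p = 0.288). A count of 0 there thus does not show that levels were equal. In the hippocampus, 0 of 10 were called in either mutant, against 0.00603% of all genes in each comparison. Under an unadjusted p of 0.05, limma listed 0 and 2 of the 10 members in the cortex (2.68% and 5.49% of all genes) and 0 and 1 in the hippocampus (5.26% and 4.73%). In the striatum, Ddn and Marcks are left out of the counts because measured values there chose them. Of the other 8, 0 were called in Shank3-HT mice (0.00607% of all genes), 0 in Shank3-HM mice (0.182%) and 0 between Shank3-HM and Shank3-HT mice (0.14%), with 1, 2 and 1 of 8 under an unadjusted p of 0.05 (7.43%, 7.43% and 6.49% of all genes).

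**Figure D2:**
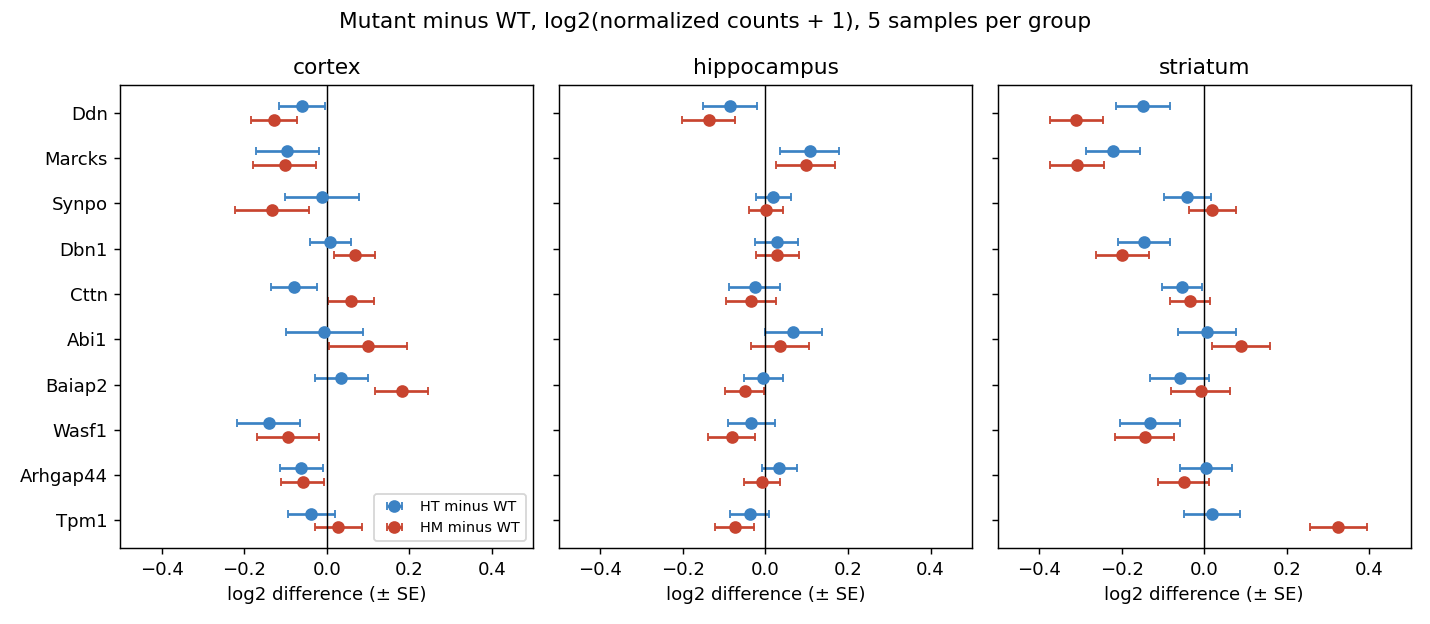
Difference of each gene between mutant and WT mice in the 3 regions. The x axis is the log2 difference of normalized counts with bars of 1 standard error, from 5 samples per group, blue for Shank3-HT and red for Shank3-HM. The striatum has the widest values, with Ddn and Marcks at -0.31 and Tpm1 at 0.33 in Shank3-HM mice, and the Ddn and Marcks values there are those that chose these genes.

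Ddn, on chromosome 15 (98803777 to 98809490, minus strand, GRCm38), is first described in the striatum. Its normalized counts were 41519, 46516, 39966, 40004 and 37028 in WT mice, 39685, 37651, 33398, 39148 and 34999 in Shank3-HT mice, and 35128, 31173, 32093, 34606 and 32193 in Shank3-HM mice. Every Shank3-HM sample lay below every WT sample, and the Shank3-HT samples overlapped both. The means were 41006 ± 3483, 36976 ± 2703 and 33038 ± 1726 (SD, n = 5), or 90.2% and 80.6% of WT. The log2 difference in Shank3-HM mice was -0.31 ± 0.07. It is the value that chose the gene and carries no test. Without the 4 mixed striatal libraries the counts were 39966 to 46516 in WT, 37651 to 39685 in Shank3-HT and 31173 to 34606 in Shank3-HM mice, and the log2 difference in Shank3-HM mice was -0.37 ± 0.06.

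The other regions were not used to choose Ddn. In the cortex its normalized counts were 29077, 30856, 28735, 28875 and 31580 in WT mice and 28751, 27789, 27497, 25573 and 26883 in Shank3-HM mice. Of these 5 mutant samples, 4 lay below every WT sample. In the hippocampus the counts were 63608, 60104, 63416, 51576 and 56718 in WT mice and 53246, 49937, 50453, 59175 and 55482 in Shank3-HM mice, and the groups overlapped. The mean was 91.5% of WT in the cortex (log2 difference -0.13 ± 0.06, limma adjusted p = 0.878) and 90.8% in the hippocampus (-0.14 ± 0.06, limma adjusted p = 0.92). Neither passed the correction for all genes, and with quantile normalization the differences were -0.07 and -0.07. Shank3-HT means stood between WT and Shank3-HM in both regions, at 96.1% and 94.1% of WT. The difference in the striatum exceeded that in the cortex by 0.18 ± 0.09 and that in the hippocampus by 0.17 ± 0.09, given without a test because the striatal values chose the gene.

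Marcks, on chromosome 10 (37133375 to 37138920, minus strand, GRCm38), is described next in the striatum, where its values in Shank3-HM and WT mice chose it. Its normalized counts there were 4347, 4243, 3812, 3801 and 4365 in WT mice, 3446, 3381, 3306, 4186 and 3364 in Shank3-HT mice, and 3469, 3404, 3119, 3220 and 3383 in Shank3-HM mice. Every Shank3-HM sample, and 4 of 5 Shank3-HT samples, lay below every WT sample, and Shank3-HT replicate 4 lay among the WT values. The means were 4114 ± 284, 3537 ± 366 and 3319 ± 144 (SD, n = 5), or 86.0% and 80.7% of WT, and the log2 differences were -0.22 ± 0.06 and -0.31 ± 0.06. The second is the value that chose the gene, and the first uses the same WT samples, so neither carries a test. Without the mixed libraries the value in Shank3-HM mice was -0.30 ± 0.07, and in Shank3-HT mice it was -0.15 ± 0.08.

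In the hippocampus Marcks did not share this direction. Its normalized counts were 2963, 2995, 2516, 2277 and 2623 in WT mice and 2987, 2695, 2862, 2701 and 3001 in Shank3-HM mice, and the groups overlapped (log2 difference 0.10 ± 0.07, limma adjusted p = 0.92). In the cortex the counts ranged from 3085 to 3684 in WT and from 2875 to 3918 in Shank3-HM mice (-0.10 ± 0.08, limma adjusted p = 0.892). The highest of these, 3918, was the mixed cortical library, and without it the difference was -0.17 ± 0.06 (limma adjusted p = 0.916). The difference in Shank3-HM mice was lower in the striatum than in the hippocampus by 0.41 ± 0.10, which has no test for the reason given for Ddn.

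The members just inside the rule were Marcks and Ddn, both at -0.31. Among 110 other spine actin genes tested, the one with the next smaller size of difference was Wipf3, a WASP-interacting protein, at 0.28 ± 0.07. Differences larger in size than that of Ddn were found for 2 of these 110 genes, and for 1402 of all 16482 genes tested in the striatum.

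**Figure D3:**
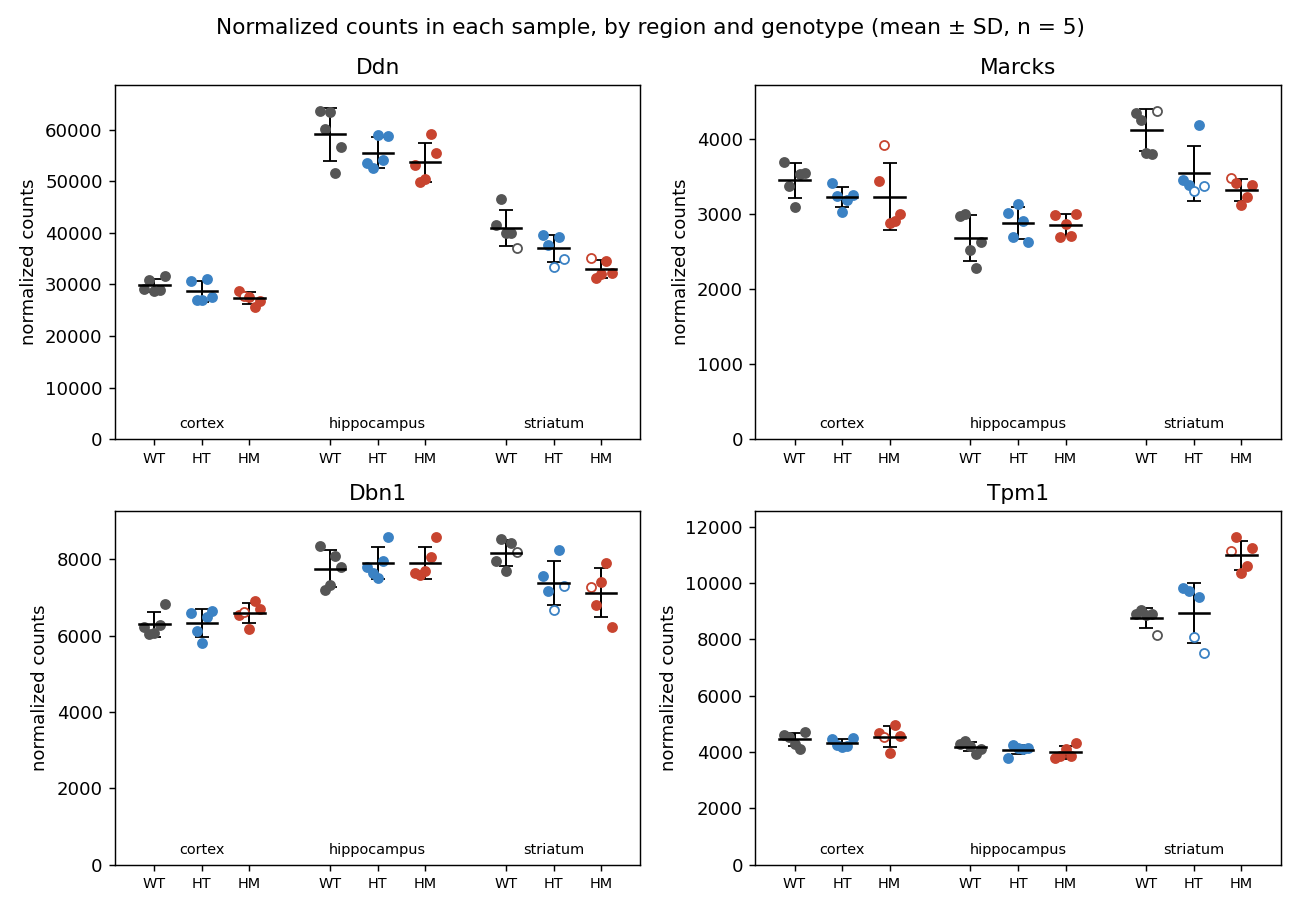
Normalized counts of Ddn, Marcks, Dbn1 and Tpm1 in every sample. The y axis is normalized counts from 0, points are samples (open points are the mixed libraries), black lines are means and bars are 1 SD with n = 5 per group. In the striatum, Shank3-HM samples lie below all WT samples for Ddn and Marcks, which were chosen by these values, and above all WT samples for Tpm1.

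Tpm1, which encodes a tropomyosin that coats actin filaments, was higher in the striatum of Shank3-HM mice. Its normalized counts were 8894, 9052, 8856, 8904 and 8139 in WT mice, 9830, 9716, 8069, 9499 and 7532 in Shank3-HT mice, and 11125, 11635, 10355, 10596 and 11240 in Shank3-HM mice. Every Shank3-HM sample stood above every WT and every Shank3-HT sample. The mean was 125% of WT (10990 ± 513 against 8769 ± 360, SD, n = 5). The log2 difference of 0.33 ± 0.07 missed the threshold over all genes (limma adjusted p = 0.0669). Of the 8 members counted, Tpm1 was the 1 whose Shank3-HM and WT samples did not overlap in the striatum, as was true of 1.86% of all genes tested. In Shank3-HT mice 0 of 8 members were without overlap in the striatum (0.971% of all genes).

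The Shank3-HT samples fell apart by library. The 2 low values, 8069 and 7532, were those of the mixed libraries, and the other 3 were 9499 to 9830, above every WT sample. With the mixed libraries left out of all groups, 5.58% of all genes were without overlap between the remaining Shank3-HT and WT samples of the striatum. In that smaller set Shank3-HM mice differed from WT by 0.29 ± 0.05 (limma adjusted p = 0.0205) and Shank3-HT mice by 0.12 ± 0.05 (limma adjusted p = 0.967). With all samples the Shank3-HT difference was 0.02 ± 0.07 (limma adjusted p = 0.97). Shank3-HM exceeded Shank3-HT mice by 0.31 ± 0.07 with all samples (limma adjusted p = 0.121) and by 0.18 ± 0.05 in the smaller set (0.439). The difference between Shank3-HM and WT mice also passed with quantile normalization (limma adjusted p = 0.0295) and equal totals (0.0303). So it did with the replicate block (0.0317) and the WT and Shank3-HM samples alone (0.0130). It missed without the intensity trend (0.182), without the filter (0.0722), with a floor of 100 (0.0603) and with a pseudocount of 0.1 (0.0671). Each of 10 fits that left out 1 sample missed as well. Over all alternatives run its adjusted p was 0.0130 to 0.204.

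In the other regions Tpm1 did not pass the threshold. Cortical values were 4116 to 4706 in WT and 3960 to 4972 in Shank3-HM mice (0.03 ± 0.06, limma adjusted p = 0.958), and hippocampal values 3950 to 4407 and 3776 to 4340 (-0.07 ± 0.05, limma adjusted p = 0.92). The difference in Shank3-HM mice was larger in the striatum than in the hippocampus by 0.40 ± 0.08 (limma adjusted p = 0.0383). This was the 1 call among 8 members, where 0.0718% of all genes were called. Against the cortex the difference was 0.30 ± 0.08 (limma adjusted p = 0.29), 0 of 8 members were called (3 had an unadjusted limma p under 0.05, as had 5.42% of all genes), and 0.0539% of all genes were. The call against the hippocampus was kept in 4 of 20 fits that left out 1 library each, and in the other 16 the adjusted p was 0.0511 to 0.0995. It was also lost without the intensity trend (limma adjusted p = 0.0657) and with the replicate number as a block (0.0605), and it held without the mixed libraries (0.37 ± 0.07, limma adjusted p = 0.0130), with all hippocampal libraries kept.

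Other actin-binding genes of contractile cells were set beside Tpm1, since it is abundant in smooth muscle as well as in neurons. Tpm2, a second tropomyosin gene, had 290, 375, 332, 326 and 252 normalized counts in striatal WT mice and 470, 479, 430, 432 and 359 in Shank3-HM mice (0.47 ± 0.12, limma adjusted p = 0.231). Tagln, a smooth muscle gene, had 231, 307, 239, 253 and 228 in WT mice and 376, 414, 402, 394 and 339 in Shank3-HM mice, without overlap (0.62 ± 0.11, limma adjusted p = 0.0221). Acta2 and Myh11, which define smooth muscle, overlapped between the groups (284 to 450 against 249 to 418, and 311 to 474 against 256 to 515). The 12 mural and smooth muscle markers summed to 7355 to 8908 in WT and 7311 to 9076 in Shank3-HM mice, with 1 of 11 tested called. In the hippocampus of Shank3-HM mice, 3 of these 12 markers were higher (median log2 difference -0.12), with 0 called. The difference of Shank3-HM effects between striatum and hippocampus was above 0 for 9 of 12 (median 0.18), with 0 called. The part of such cells in the Tpm1 differences was not tested.

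**Figure D4:**
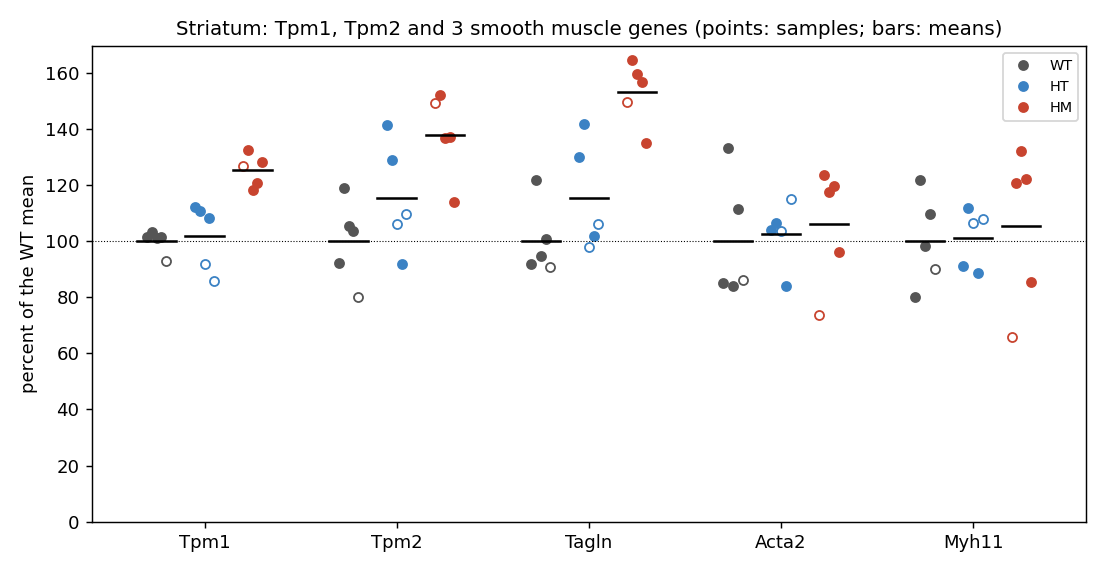
Tpm1, Tpm2 and 3 smooth muscle genes in the striatum. The y axis is percent of the WT mean, points are samples (open points are the mixed libraries) and black bars are group means, with 5 samples per genotype. Shank3-HM samples stand above all WT samples for Tpm1 and Tagln, and overlap with them for Tpm2, Acta2 and Myh11.

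Neuronal and glial markers were read in the same striatal samples. The 13 markers of spiny projection neurons summed to 235962 to 318151 in WT and 279561 to 308887 in Shank3-HM mice, and 0 of 13 were called. The 8 inhibitory neuron markers were each higher in the mean of Shank3-HM mice, with 0 called, and their sum was 41816 to 44345 against 37594 to 38563 in WT mice, without overlap. Of 10 oligodendrocyte markers 9 were higher, again with 0 called (206978 to 314075 against 186978 to 247563). In Shank3-HT mice, where the means of Ddn, Marcks and Dbn1 were also below WT, 10 of 10 oligodendrocyte markers were higher (203319 to 345091, median log2 difference 0.35 against 0.21 in Shank3-HM mice), with 0 called. In the same mice 10 of 10 astrocyte markers were higher (median log2 difference 0.10) and 1 of 13 spiny projection neuron markers was higher (median log2 difference -0.06, sums of 247693 to 316368), with 0 called in either list. Choroid plexus markers were higher in 8 of 8 (median log2 difference 1.37), and markers of cortical and hippocampal excitatory neurons in 2 of 10 (median log2 difference -0.93), with 0 called. The choroid plexus sums had a median of 659 against 576 in WT mice, and a highest of 69307 against 1537. Ttr, among these markers, was 62259 in the mixed library Shank3-HT replicate 5 and at most 839 in the other Shank3-HT samples. Of 10 endothelial markers 1 was higher in Shank3-HM mice (median log2 difference -0.12, 7283 to 8376 against 8038 to 9381 in WT mice), with 0 called. Of the markers of cortical and hippocampal excitatory neurons, 1 of 10 was called, Lamp5, and their sums overlapped (4835 to 12964 against 4457 to 13556). The part of these markers in the striatal values of Ddn, Marcks, Dbn1 and Tpm1 was not tested.

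In the cortex of Shank3-HM mice, 1 of 10 markers of excitatory neurons was higher (median log2 difference -0.17, sums of 34951 to 69076 against 62183 to 67486 in WT mice), and so was 1 of 10 endothelial markers (-0.19). No microglial marker of 10 was higher (-0.09), and 1 of 12 mural and smooth muscle markers was (-0.16). All 10 oligodendrocyte markers (0.12) and all 13 markers of spiny projection neurons (0.65) were higher, and 0 markers were called in these lists. The lowest excitatory sum and the highest spiny projection sum, 69902, were both those of the mixed cortical library. The part of these markers in the cortical values of Ddn, Baiap2 and Synpo was not tested. In the hippocampus of Shank3-HM mice, 1 of 10 oligodendrocyte (-0.08), microglial (-0.10) and endothelial markers (-0.06) each were higher, and 2 of 10 neuron markers (-0.03). Astrocyte markers were higher in 6 of 10 (0.01) and choroid plexus markers in 7 of 8 (0.28). In Shank3-HT mice 0 of 8 choroid plexus markers were higher (-1.57). Of these, 0 were called, and their part in hippocampal values was not tested.

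Dbn1, the filament binder drebrin, had the next widest striatal difference among the members. Its normalized counts in the striatum were 7941, 8515, 7694, 8423 and 8185 in WT mice and 7277, 6794, 7407, 7911 and 6235 in Shank3-HM mice. Of the mutant samples 4 of 5 lay below every WT sample, and 1 lay within the WT range. The mean was 87.4% of WT (log2 difference -0.20 ± 0.06, limma adjusted p = 0.411), and 90.6% in Shank3-HT mice (-0.15 ± 0.06, limma adjusted p = 0.659, and -0.09 without the mixed libraries). In the cortex and hippocampus Dbn1 stood at 105% and 102% of WT. The difference in Shank3-HM mice was lower in the striatum than in the cortex by 0.27 ± 0.08 (limma adjusted p = 0.412) and than in the hippocampus by 0.23 ± 0.08 (limma adjusted p = 0.7). None of these passed the threshold.

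Neither member of the WAVE complex passed the threshold in a mutant. Wasf1 in Shank3-HM mice was 93.9% of WT (cortex), 94.1% (hippocampus) and 90.4% (striatum). In the last it had 4735 to 5141 normalized counts against 4937 to 5939 (-0.14 ± 0.07, limma adjusted p = 0.696). Without the mixed libraries, the striatal groups no longer overlapped, at 4735 to 4949 against 5213 to 5939 (-0.19 ± 0.07, limma adjusted p = 0.367), as was true of 5.7% of all genes with these fewer samples. Abi1 was 108%, 102% and 106% of WT in the 3 regions (differences of 0.04 to 0.10 with standard errors of 0.07 to 0.09). Without the mixed libraries it was 112% of WT in the cortex (0.16 ± 0.09) and 99.9% in the striatum, where the difference changed sign (-0.0028 ± 0.0575). Cttn in the cortex of Shank3-HT mice was 2560, 2472, 2457, 2479 and 2479 against 2624, 2588, 2667, 2619 and 2651 in WT mice. These groups did not overlap, which held for 1 of 10 members and for 0.63% of all genes tested, and the log2 difference was -0.08 ± 0.06 (limma adjusted p = 1). No member was without overlap in the cortex of Shank3-HM mice (0.8% of all genes), or in the hippocampus of Shank3-HT (0.797%) or Shank3-HM mice (0.736%). In Shank3-HM mice the cortical Cttn values ran from 2426 to 3069, on both sides of WT, and the difference was 0.06, or 0.10 without the mixed library.

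Baiap2 in the cortex of Shank3-HM mice was 7351, 8344, 7287, 9050 and 8257 against 6857, 6525, 7081, 7602 and 7400 in WT mice. Of the mutant samples 3 stood above every WT sample, and the mean was 114% of WT (0.18 ± 0.06, limma adjusted p = 0.878). In the striatum, where Baiap2 is highest, the mean was 99.1% of WT (-0.01 ± 0.07), and in the hippocampus 96.5%. Without the mixed libraries the striatal difference was -0.04. Arhgap44 was 96.1%, 99.4% and 96.5% of WT in the 3 regions, and without the mixed libraries 98.6% in the cortex and 97.8% in the striatum. Synpo in the striatum of Shank3-HM mice was 101% of WT and in the hippocampus 100.1%, and without the mixed libraries the striatal difference went from 0.02 to -0.02. In the cortex it was 92.0%, where 1 of 5 samples, the mixed library, was at 5177 and the others at 6794 to 7695. Without it cortical Synpo was 97.9% of WT.

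The rest of the spine actin machinery was represented by 111 further genes, of which 110 were tested. No gene among the 110 was called in the 6 comparisons of mutant with WT mice, with limma unadjusted p values under 0.05 for 0 and 7 of them in the cortex (Shank3-HT and Shank3-HM, against 2.68% and 5.49% of all genes), 9 and 4 in the hippocampus (5.26% and 4.73%) and 6 and 13 in the striatum (7.43% in both). The medians of their log2 differences lay between -0.01 and 0.02. The genes with the smallest p values, which did not pass the threshold, included Cobl, an actin nucleator, in the hippocampus (0.36 ± 0.11 in Shank3-HM and 0.33 ± 0.11 in Shank3-HT mice, limma adjusted p = 0.92 and 0.926). In the striatum of Shank3-HM mice they were Wipf3 (0.28 ± 0.07, limma adjusted p = 0.223) and Tpm2. In the cortex they included Vav2, a Rac activator, in Shank3-HM mice (0.24 ± 0.08, limma adjusted p = 0.878) and Baiap2l1, a relative of Baiap2, in Shank3-HT mice (0.66 ± 0.34). They were Capza1 (0.18 ± 0.06) and Myo6 (0.19 ± 0.08) in the striatum of Shank3-HT mice. The second gene of the hippocampal comparisons was Wipf3 in Shank3-HT mice (-0.16 ± 0.06) and Synpo2, a relative of Synpo, in Shank3-HM mice (-0.31 ± 0.12).

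Between WT regions many of these genes passed the threshold. Against the cortex, 44 of 110 were higher and 40 lower in the striatum, and against the hippocampus 29 were higher and 49 lower. In the hippocampus 43 were higher and 31 lower than in the cortex. These were 76.4%, 70.9% and 67.3% of the 110 genes, where 59.3%, 56.1% and 46.6% of all genes were called. The actin crosslinker Actn2 was the widest, at 3708 ± 458 normalized counts in the striatum against 254 ± 29.4 in the cortex and 444 ± 20.9 in the hippocampus (SD, n = 5). Cobl was low in the hippocampus (500 ± 59.7) and high in the cortex (4397 ± 285) and striatum (3387 ± 369). Of the 10 Arp2/3 genes, 8 were higher in the hippocampus than in the cortex and 0 lower, 6 were higher in the striatum than in the cortex and 1 lower, and 1 was higher in the striatum than in the hippocampus and 5 lower. Of the 13 cofilin pathway genes, 8 were lower in the striatum than in the cortex and 1 higher, 7 were lower in the striatum than in the hippocampus and 1 higher, and 5 were lower in the hippocampus than in the cortex and 3 higher. The shares of all genes called in these comparisons, given above, were 46.6% to 59.3%.

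Genes whose profile was most like those of Ddn and Marcks were sought among the 16708 genes tested over all samples, as a description without a test. Over the 15 striatal samples, which share the genotype groups, the highest Pearson correlations of log2 values with Ddn were those of Dcaf7 (0.92), Elk1 (0.92) and Mpv17l (0.91). Over all 45 samples, which also share the regions, they were those of Epha7 (0.97), Cnih2 (0.97) and Lrrtm1 (0.97). For Marcks, Gap43, a growth cone protein that also binds membrane lipids, was first in both sets (0.90 over 15 and 0.87 over 45 samples), followed by Wnt7a (0.87) and Ap3m2 (0.85) over striatal samples, and by Slc35f1 (0.84) and Efnb2 (0.83) over all.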

How the data were processed

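Stranded mRNA libraries of 45 samples were read. Per the methods of the study, the authors quantified transcripts with Salmon 1.1.0 by quasi-mapping with GC bias correction, imported them with tximport and normalized them in DESeq2 (1.26.0 under R 3.6.2 in the submitters' processing notes, with GRCm38). The deposited signal values are these normalized counts. They have decimals and do not give back whole reads, so no count test was run. Their totals per sample (26118607 to 29568983) are not depth. The labels call the homozygous mice knock-out and the columns write KI, and both names were taken as Shank3-HM.

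The scale was log2(value + 1). Genes whose mean reached 10 were tested in limma 3.58.1 (R 4.3.3, eBayes with an intensity trend), over the 15 samples of a region for genotypes (16507 genes in the cortex, 16571 in the hippocampus, 16482 in the striatum) and over 45 samples in 9 groups for regions and for differences of effects (16708). Benjamini-Hochberg adjustment was over all genes tested, with a threshold of 0.05. The samples are labelled as replicates, and p values measure the spread between them. The members and lists were chosen with earlier results of these data known. Named genes are all members, Shank3, up to 6 listed spine actin genes past the threshold per genotype comparison (or the 2 with the smallest unadjusted p), the 3 largest per region comparison, the next size below Ddn and Marcks, and the 3 genes most correlated with each. Some genes that this rule names are not reported here. Tagln, Acta2, Myh11, Lamp5, Drd1, Slc17a7 and Ttr are named as markers. Exon lengths are from GENCODE annotation of GRCm38 and count every exon of a gene once, and sequences are from RefSeq. Ddn and Marcks were given no test in any comparison that uses striatal samples. The test was checked on simulated data. Alternatives were no intensity trend, quantile normalization, equal totals, no filter, a floor of 100, a pseudocount of 0.1, a replicate block, the compared groups alone, leaving out each sample, and, chosen after seeing the data, leaving out the mixed libraries and repeating region comparisons in mutants. Figures were drawn with matplotlib 3.10.9 (Python 3.11.15).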

Additional observations from a re-analysis of the deposited data

Results flagged for a closer look

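The difference of Tpm1 between Shank3-HM and WT mice was larger in the striatum than in the hippocampus by 0.40 on the log2 scale, and the test of that difference itself passed the threshold (limma adjusted p = 0.0383). It missed the threshold in 16 of 20 fits that left out 1 library each (up to 0.0995), without the intensity trend (0.0657) and with the replicate block (0.0605).

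Within groups of 5 samples, a Dixon test at the 95% level set 8 samples apart among 90 combinations of gene and group, where chance flags about 1 in 20. Marcks was 4186 in striatum Shank3-HT replicate 4, against 3306 to 3446 in the other 4 samples. Synpo was 6746 in cortex Shank3-HT replicate 3, against 7597 to 7850, and 4785 in striatum Shank3-HM replicate 5, against 5354 to 5518. Cttn was 2560 in cortex Shank3-HT replicate 1, against 2457 to 2479. Abi1 was 3470 in cortex WT replicate 2, against 2822 to 2964, and Dbn1 was 6836 in cortex WT replicate 5, against 6050 to 6266. Tpm1 was 3791 in hippocampus Shank3-HT replicate 1, against 4120 to 4240, and 8139 in striatum WT replicate 5, a mixed library, against 8856 to 9052.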

How the results depend on the processing

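With Ddn and Marcks left out, the count of members called between Shank3-HM and WT mice in the striatum was 0, and it was 1 (Tpm1) with quantile normalization, equal totals, the replicate block, the compared groups alone, or without the mixed libraries. Leaving out 1 sample at a time gave 0 in each of 10 fits. The count for the Shank3-HM effect in striatum against hippocampus was 1, and it was 0 without the intensity trend and with the replicate block (Tpm1, limma adjusted p = 0.0605), and 0 to 1 when 1 sample was left out. It stayed 1 only without hippocampus WT replicate 4, hippocampus HM replicate 5, striatum HM replicate 3 or striatum HM replicate 4. The causes were not tested. Counts in the other 10 comparisons stayed within 1.5 times under the alternatives run. Equal totals moved the median of all genes between WT striatum and hippocampus to -0.11, and the calls there from 4638 higher and 4735 lower to 3395 and 6340. Between hippocampus and cortex it moved them from 3900 and 3890 to 5181 and 3119, and quantile normalization moved those of Shank3-HM against WT striatum from 26 and 4 to 23 and 8. Dbn1 between striatum and hippocampus was 0.07 in WT and -0.15 in Shank3-HM mice (limma adjusted p = 0.0180), the 1 reversal involving a call among 2500 values recomputed. It came from samples of another genotype in place of WT, which the 2500 include, and not from other processing of the same samples. The sign also changed in 105 values that passed the threshold under neither setting, with reported sizes of up to 0.0887 (Abi1, striatum, Shank3-HM against WT). Of all, 2453 kept their direction and side of the threshold or moved within replicate spread. Correlations of same-numbered deviations ran from -0.13 to 0.26, so not every one was over 0.1 and the numbers were not taken to pair the samples. Those between hippocampus and striatum of one genotype were all above 0 (medians of 0.0693 to 0.165 by genotype), and whether regions share mice is not known. Low depth cannot be weighed, since depth is unknown.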
